A study of Mus musculus with 24 samples.

Results

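The 10 genes described here encode granule proteins and receptors of neutrophils, the white blood cells that enter injured skin first. They were taken by symbol from a table of 18368 genes and all 10 were found: the azurophil granule genes Mpo and Elane, the specific granule genes Ltf, Camp, Ngp and Lcn2, and the genes of mature neutrophils Retnlg, Csf3r, Cxcr2 and Ly6g. RNA came from 12 CD-1 mice, an outbred stock without a transgene or a mutation named in the labels, aged 7 weeks when wounded. Each mouse gave 1 library of unwounded skin and 1 library of a wound 3 days after a 2 mm full-thickness excision, both from a single site. The sites were abdomen, back and cheek, with 4 mice each, and cheek mice carried 1 wound whereas abdomen and back mice carried 2. All mice had been shaved, the labels place the hair follicles in telogen, their resting phase, and each library holds the RNA of a whole 2 mm punch, so no cell type was sorted.

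Neutrophils are made in the bone marrow, and their granules are filled in a fixed order. Promyelocytes transcribe the genes of the azurophil granules (Mpo, Elane), and myelocytes and metamyelocytes those of the specific granules (Ltf, Camp, Ngp, Lcn2). The late stages express the receptors with which the cell leaves the marrow and finds its way to a wound (Csf3r, Cxcr2). Csf3r is not confined to these stages. The surface marker Ly6g and the secreted protein Retnlg are also expressed in them. Circulating and tissue neutrophils carry the granule proteins but have largely stopped making the granule messengers.

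Csf3r, the receptor of granulocyte colony-stimulating factor, rose at all 3 sites, by 2.65 ± 0.23 on the log2 scale in abdomen, 3.08 ± 0.23 in back and 3.77 ± 0.23 in cheek (SE, n = 4 mice per site). Cxcr2, the chemokine receptor that leads neutrophils to injured tissue, rose by 2.00 ± 0.26, 2.69 ± 0.26 and 2.98 ± 0.26. Elane, which encodes neutrophil elastase, did not exceed 0.5 FPKM in any of the 24 libraries. Mpo, which encodes myeloperoxidase, was well above 0 but went the other way, with a lower value in the wound than in the unwounded skin of all 12 mice.

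The stretches below lie upstream of 5 of the genes. They are shown because Mpo was lower in every wound and Retnlg, Csf3r and Cxcr2 were higher. Elane is shown beside Mpo as the other azurophil gene, though a change of Elane was not detectable. Each begins 250 bases before the RefSeq start in GRCm38.p6 and ends where the GENCODE vM21 gene model or the RefSeq transcript begins, whichever comes first. Capitals mark matches, on either strand, to TTGCNNAA (the C/EBP motif), GAGGAA (the PU.1 motif) or a 10-base NF-kB motif, all motifs of factors known from granulocyte genes.
Mpo (chr11:87793534-87793580, plus strand): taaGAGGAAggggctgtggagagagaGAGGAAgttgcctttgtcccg
Elane (chr10:79886062-79886246, plus strand): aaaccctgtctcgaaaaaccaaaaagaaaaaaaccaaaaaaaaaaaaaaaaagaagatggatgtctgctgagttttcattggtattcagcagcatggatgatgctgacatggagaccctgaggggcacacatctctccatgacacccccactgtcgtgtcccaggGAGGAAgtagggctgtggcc
Retnlg (chr16:48872358-48872607, plus strand): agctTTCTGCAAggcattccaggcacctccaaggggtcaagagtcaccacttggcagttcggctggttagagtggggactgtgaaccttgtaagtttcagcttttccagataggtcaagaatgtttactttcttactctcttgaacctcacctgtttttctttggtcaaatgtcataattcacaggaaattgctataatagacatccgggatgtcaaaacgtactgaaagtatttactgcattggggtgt
Csf3r (chr4:126024409-126024549, plus strand): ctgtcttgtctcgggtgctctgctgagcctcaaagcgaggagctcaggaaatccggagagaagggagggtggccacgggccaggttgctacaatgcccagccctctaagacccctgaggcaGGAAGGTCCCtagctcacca
Cxcr2 (chr1:74153744-74153988, plus strand): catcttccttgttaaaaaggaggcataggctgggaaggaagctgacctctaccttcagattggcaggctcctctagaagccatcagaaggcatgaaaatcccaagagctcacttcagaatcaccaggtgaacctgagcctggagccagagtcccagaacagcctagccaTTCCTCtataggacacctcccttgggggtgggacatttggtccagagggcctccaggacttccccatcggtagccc
Over the full 250 bases of the members, GAGGAA occurred in 7 of 10 genes against 23.3% of all 32817 RefSeq promoters, TTGCNNAA in 5 of 10 against 9.6%, and the NF-kB motif in 2 of 10 against 17.6%. In Ly6g a GAGGAA match lay within the NF-kB match. GAGGAA lay before genes of both kinds, 2 times before Mpo and 1 time each before Elane, Csf3r and Cxcr2. That of Csf3r lay past the end of the stretch shown. These letters thus did not separate the azurophil from the mature genes. A match is a description of the letters and not of binding. Mpo lies on chromosome 11 at 87793581 to 87804413 (GRCm38, plus strand, up to 14 exons in a transcript) and overlaps the antisense gene Gm11505. Whether the counting used strand is not given in the sources used here, so reads of these overlapping genes may not be separable. No overlapping gene model was found for the other 9 members.

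The unit of every level below is FPKM, fragments scaled to transcript length and to the size of the library, so levels can be set side by side between genes. Fold changes are differences of log2(FPKM + 0.5), which understates the change of low genes. They come from limma with a term for each mouse, fitted over the 14423 genes that reached 0.5 FPKM in 4 or more libraries, and a wound effect was called at an adjusted p under 0.001. Of the 10 genes 8 passed this filter. Elane and Ltf did not, and Ngp and Ly6g passed mainly or wholly through wound libraries, which makes a rise in them part of the reason they were tested. FPKM values carry no fragment counts, so their counting error is unknown. The FPKM values of a library summed to between 490830 and 608888, and from the lowest steps of 421 genes the relative depth of the libraries was between 0.946 and 1.063 (a rough estimate).

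**Figure D1:**
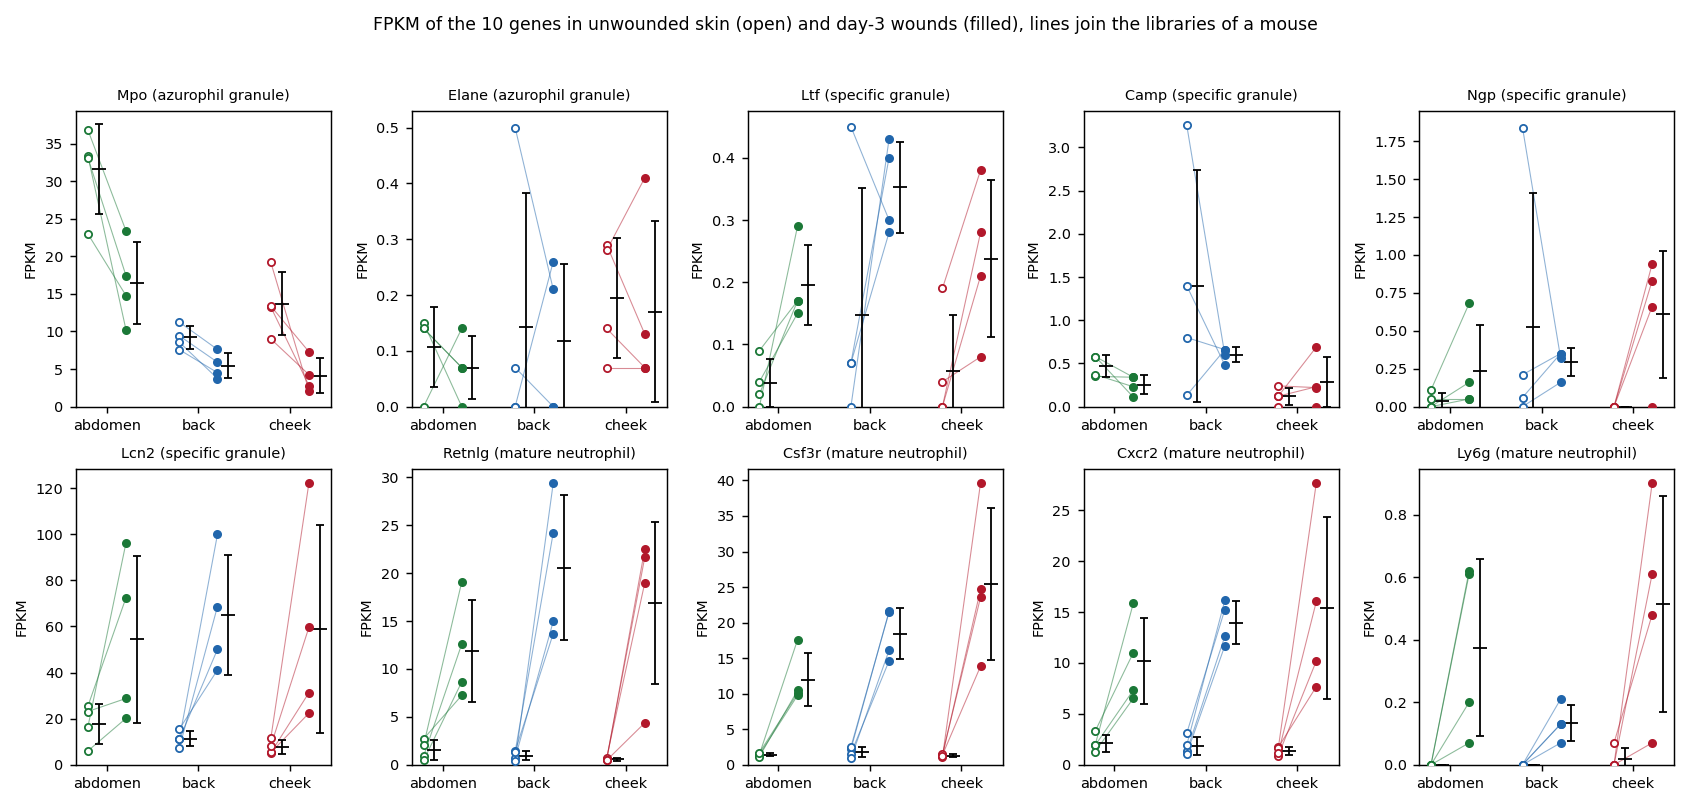
FPKM (linear axis from 0) of each of the 10 genes by site, with open points for unwounded skin, filled points for day-3 wounds, a line for each mouse, and bars for the mean ± SD of 4 libraries (drawn only above 0). Retnlg, Csf3r and Cxcr2 are higher in every wound, Mpo is lower in every wound, and Elane and Ltf stay at or under 0.5 FPKM.

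Mpo had the highest level of the 10 genes in unwounded abdomen skin. Its values there were 33.40, 33.14, 36.85 and 23.00 FPKM in mice 1 to 4, against 7.58, 9.43, 8.58 and 11.25 in unwounded back and 9.01, 13.25, 19.19 and 13.38 in unwounded cheek. The 4 abdomen libraries lay above all other unwounded libraries. Back was lower than abdomen by 1.72 ± 0.21 on the log2 scale (limma adjusted p = 0.00148) and cheek by 1.2 ± 0.21 (adjusted p = 0.0124), both past the threshold of 0.05 used between sites. The cheek call was lost without abdomen mouse 3 (limma adjusted p = 0.0553). The exact permutation test of FPKM gave p = 0.0286 for each, the smallest that 4 against 4 libraries allow (two-sided). In the comparisons of unwounded sites 6 of the 10 genes were tested (Elane, Ltf, Ngp and Ly6g did not pass the filter), and of these 6 only Mpo was called, where 2.67% of 13956 genes were called for back against abdomen, 2.57% for cheek against abdomen and 1.05% for cheek against back. Over all tested genes the median difference of unwounded back from abdomen was -0.12 and became 0.0043 with median-ratio scaling, a shift much smaller than the difference in Mpo.

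In the wounds Mpo was 10.24, 17.45, 23.41 and 14.79 FPKM in abdomen, 4.52, 5.91, 3.74 and 7.61 in back and 4.24, 2.79, 2.11 and 7.29 in cheek. Only in cheek did the wound libraries lie below all unwounded ones. The wound effect was -0.96 ± 0.29 in abdomen (limma adjusted p = 0.026), -0.74 ± 0.29 in back (adjusted p = 0.056) and -1.7 ± 0.29 in cheek (adjusted p = 0.00103), and none of the 3 passed 0.001. The cheek value lay close to that threshold and passed it in 5 of 9 other settings that kept the threshold, among them both other scalings, and without abdomen mouse 1 or cheek mouse 4. With all 4 mice of a site lower, the exact test of sign changes gave p = 0.12 at each site, the smallest that 4 mice allow (two-sided). Abdomen was also the highest site among wounds. The order of the back and cheek means changed, but their libraries overlapped in both states. Neither difference between back and cheek was called (limma adjusted p = 0.187 unwounded and 0.436 in wounds). Cheek wounds held less Mpo than abdomen wounds by 1.95 ± 0.34 (limma adjusted p = 0.0109), while back wounds were lower than abdomen wounds by 1.5 ± 0.34, which missed the threshold (adjusted p = 0.0595).

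In all 12 mice Mpo thus had a lower value in the wound, where Csf3r, Cxcr2 and Retnlg had a higher one. The mean of Cxcr2 in unwounded abdomen, back and cheek was 2.12, 1.85 and 1.33 FPKM and that of Retnlg 1.53, 0.96 and 0.55. Both were highest in abdomen, like Mpo, whereas Csf3r (1.44, 1.80 and 1.29) was highest in back. None of these site differences in Cxcr2, Retnlg or Csf3r was called (limma). Over the 12 unwounded libraries Mpo and the summed mature members had an r of 0.18 (Spearman 0). Over the 12 wound libraries Mpo and Csf3r had a Pearson r of -0.83 (Spearman -0.73), and of -0.60 after site means were subtracted. With Cxcr2, Retnlg and Ly6g the r of Mpo was -0.57, -0.44 and -0.22, then -0.47, -0.40 and -0.50. These values are a description over libraries that share their sites. The genes most like Mpo over all 24 libraries, a comparison chosen after its values were seen, were Cyp2b23, Efs, Hacd2, Pnpla5, Lhpp, Rarres1, A4gnt and Nptx2, with r between 0.91 and 0.95. Pnpla5 encodes a lipase, Hacd2 an enzyme of fatty acid elongation and Cyp2b23 a cytochrome P450. With group means subtracted the 8 most like Mpo were Cfap57, Cyp2b23, Efs, 6330403K07Rik, Ocm, Mrnip, Cyp1a1 and Alpl, with r between 0.74 and 0.83. Cyp2b23 and Efs were in both sets, Pnpla5 and Hacd2 only in the first. Neither set holds a gene of the neutrophil lists used here.

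A list of 10 sebaceous gland markers was set beside Mpo, also after the values were seen. Their summed level was 2045 to 2927 FPKM in unwounded abdomen, 1214 to 1781 in back and 1568 to 2437 in cheek. In unwounded back 4 of the 10 were called lower than in abdomen (Awat1, Cidea, Scd1 and Soat1), beside 2.67% of all tested genes in either direction. For unwounded cheek against abdomen, where Mpo was called too, 0 of the 10 were called, beside 2.57% of all tested genes. Over the 12 unwounded libraries their sum correlated with Mpo at r = 0.81 (Spearman 0.76) and over the 12 wound libraries at 0.75 (Spearman 0.57). With group means subtracted the values were 0.35 and 0.19, so most of the relation was between groups. In wounds the sum was 1425 to 2164 FPKM, and 0 of the 10 markers passed 0.001 at any site (limma). At an adjusted p under 0.05 limma called 3, 4 and 5 of them, beside 32.9%, 45.9% and 36.6% of all genes. The part of gland cells in the level of Mpo was not tested.

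**Figure D2:**
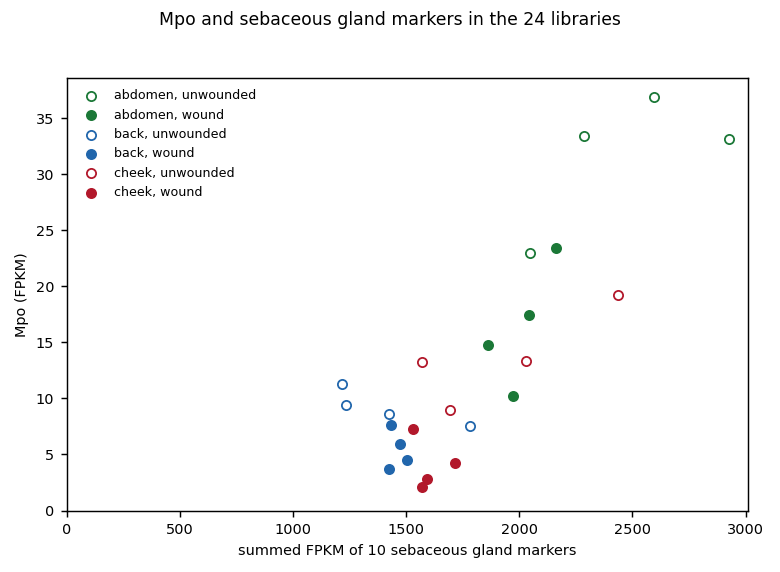
Mpo (FPKM) against the summed FPKM of 10 sebaceous gland markers in the 24 libraries (both axes linear from 0), open points for unwounded skin and filled points for wounds. The 4 unwounded abdomen libraries hold 3 of the 4 highest sums and the 3 highest Mpo values, and with group means subtracted r is 0.35 in unwounded skin and 0.19 in wounds.

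Elane was near the limit of what these values resolve. It was 0, 0.14, 0.15 and 0.14 FPKM in unwounded abdomen, 0.50, 0.07, 0 and 0 in unwounded back and 0.29, 0.14, 0.28 and 0.07 in unwounded cheek. Wound values were 0.14, 0.07, 0 and 0.07 in abdomen, 0.21, 0, 0 and 0.26 in back and 0.13, 0.07, 0.41 and 0.07 in cheek. The groups overlapped at every site, 1 of 4 mice was higher in the wound at each, and the exact test of sign changes gave p = 0.625, 0.75 and 0.75 (two-sided). The lowest value above 0 was 0.07 FPKM, and 15 of its 18 values above 0 lay within 0.01 FPKM of a whole multiple of it, so they stand for a few fragments each. A change of Elane was not detectable at this depth.

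No gene of the further early list was called. The list of azurophil and progenitor genes held Prtn3 (proteinase 3), Ctsg (cathepsin G), Ms4a3 (a marker of granulocyte and monocyte progenitors), Fcnb (ficolin B) and the transcription factors Cebpe and Gfi1. Prtn3 was 0.66 to 4.42 FPKM in unwounded skin and 0.06 to 1.79 in wounds, and Ctsg 0.20 to 1.38 and 0.18 to 1.55. Ms4a3 was at 0 in 22 of 24 libraries and Fcnb in 21, and Gfi1 did not exceed 0.24 FPKM. Of the 6 genes 3 could be tested, and 0 passed 0.001 at any site (limma). The nearest was Cebpe in back wounds, at 1.33 ± 0.29 on the log2 scale and an adjusted p of 0.00275. Cebpe, which drives the late granule programme, was 0.16 to 0.25 FPKM in unwounded back and 1.07 to 1.71 in back wounds, without overlap. The median fold change of the 3 was 0.17, 0.39 and -0.06, against a median over all tested genes of -0.01, 0.07 and 0.01.

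Among the specific granule genes Lcn2 stood alone. Lcn2 encodes lipocalin 2, which binds bacterial siderophores and is also made by stressed epithelium. In unwounded skin it was 16.35, 25.37, 23.11 and 5.99 FPKM in abdomen, 11.03, 15.48, 11.19 and 7.34 in back and 5.22, 5.33, 11.55 and 8.22 in cheek. In wounds it reached 96.24, 72.44, 28.77 and 20.13 in abdomen, 50.07, 41.14, 99.96 and 68.66 in back and 31.30, 22.40, 122.41 and 59.72 in cheek. Back and cheek wounds lay above all unwounded libraries of their site, and in abdomen the wound of mouse 4 lay within the unwounded range.

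Lcn2 rose by 2.44 ± 0.36 on the log2 scale in back (limma adjusted p = 0.000388) and 2.65 ± 0.36 in cheek (adjusted p = 0.000335). In abdomen the value was 1.5 ± 0.36 with an adjusted p of 0.0105, short of the threshold. Both calls were close to it: without back mouse 1, 3 or 4 the back value had an adjusted p of 0.00173 to 0.00302, and without any single cheek mouse that of cheek was 0.00137 to 0.0027. Over the 12 wound libraries with site means subtracted, Lcn2 followed Cxcr2 (r = 0.89, Spearman 0.92) and the summed wound keratinocyte markers Krt6a, Krt6b, Krt16, Krt17, Sprr1b and Sprr2d (r = 0.77, Spearman 0.84). With Retnlg the r was -0.0045. The keratinocyte sum was followed likewise by Cxcr2 (r = 0.84, Spearman 0.92) and Csf3r (r = 0.72, Spearman 0.67), so the relation was not particular to Lcn2. These keratinocyte markers summed to 408 to 1348 FPKM in unwounded skin and to 2562 to 17751 in wounds. The part of keratinocytes in these levels was not tested.

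Ltf, Camp and Ngp, the other specific granule genes, stayed low. Ltf, which encodes lactoferrin, was 0, 0.09, 0.02 and 0.04 FPKM in unwounded abdomen, 0.07, 0.45, 0.07 and 0 in back and 0, 0, 0.19 and 0.04 in cheek. Its wound values were 0.29, 0.17, 0.17 and 0.15 in abdomen, 0.28, 0.30, 0.40 and 0.43 in back and 0.28, 0.21, 0.38 and 0.08 in cheek. They were higher in 11 of the 12 mice, by too little to pass the filter, and the exact test of sign changes gave p = 0.12, 0.25 and 0.12. Abdomen wounds did not overlap unwounded abdomen, while in back and cheek the groups overlapped.

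Camp encodes the cathelicidin precursor. Its values were 0.35, 0.58, 0.37 and 0.58 FPKM in unwounded abdomen, 1.4, 3.26, 0.80 and 0.13 in back and 0.24, 0, 0.12 and 0.12 in cheek. In wounds they were 0.34, 0.11, 0.23 and 0.34 in abdomen, 0.48, 0.60, 0.66 and 0.66 in back and 0.22, 0, 0.69 and 0.23 in cheek. The fitted wound effects were -0.36 ± 0.32, -0.50 ± 0.32 and 0.28 ± 0.32, with limma adjusted p between 0.22 and 0.52, so its direction was not settled at any site. Ngp, neutrophilic granule protein, was 0.05, 0, 0.11 and 0 FPKM in unwounded abdomen and 0, 1.84, 0.21 and 0.06 in unwounded back, and was listed at 0 in all 4 unwounded cheek libraries. In wounds it was 0.05, 0.05, 0.68 and 0.16 in abdomen, 0.16, 0.32, 0.35 and 0.35 in back and 0.66, 0.83, 0.94 and 0 in cheek. The limma adjusted p was 0.405 for abdomen, 0.892 for back and 0.026 for cheek, none past 0.001.

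The highest values of Ltf, Camp and Ngp in unwounded skin all came from 1 library, back mouse 2. It held 0.45, 3.26 and 1.84 FPKM, against 0 to 0.19, 0 to 1.4 and 0 to 0.21 in the other 11 unwounded libraries. Its Csf3r and Cxcr2, at 1.58 and 1.31, lay within the range of the others. Elane in the same library was 0.07.

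The further list of specific and gelatinase granule genes gave a different count from Ltf, Camp and Ngp. Of its 8 genes 7 were tested and 5 rose at each site, beside 3.92%, 10% and 6.5% of all tested genes called higher. The 5 were Mmp8 (neutrophil collagenase), Mmp9 (gelatinase B), Cybb (a subunit of the NADPH oxidase), Chil3 (a chitinase-like protein) and Itgam (the integrin CD11b). Mmp8 reached 0.5 FPKM in no unwounded library and Chil3 in 1, which makes a rise in them part of why they were tested. Mmp8 rose by 1.53, 2.82 and 2.99 on the log2 scale, Chil3 by 2.53, 2.2 and 2.32, Mmp9 by 1.23, 1.63 and 2.27, Cybb by 1.66, 1.53 and 1.65, and Itgam by 1.35, 2.01 and 1.76. Itgam, Cybb and Mmp9 are also genes of macrophages, and Mmp9 was at 3.44 to 11.49 FPKM already without a wound. Cd177, a surface protein of neutrophils, had values of 0.52, 0.54 and 0.55 with adjusted p between 0.061 and 0.089. Hp (haptoglobin) was at 112 to 354 FPKM throughout, with values of -0.37, 0.05 and 0.01. Olfm4, a specific granule protein, did not pass the filter and was at most 0.02 FPKM in unwounded skin and 0.08 to 0.56 in wounds. The list's median was 1.35, 1.63 and 1.76.

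Csf3r was low in all unwounded skin. Its values were 1.46, 1.44, 1.15 and 1.69 FPKM in abdomen, 2.2, 1.58, 2.52 and 0.89 in back and 1.38, 1.46, 1.04 and 1.28 in cheek. Its wound values were 17.58, 9.75, 10.45 and 10.07 in abdomen, 21.58, 14.61, 21.46 and 16.10 in back and 13.86, 23.56, 39.66 and 24.66 in cheek. Every wound library lay above every unwounded library, at all sites, and limma adjusted p values were 1.3e-05, 1.6e-06 and 4.5e-07. The call held in each of the 10 other settings, the looser threshold included, and without any single mouse.

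Cxcr2 was 1.95, 3.31, 1.91 and 1.29 FPKM in unwounded abdomen, 3.09, 1.31, 1.92 and 1.06 in back and 1.7, 0.90, 1.6 and 1.13 in cheek. Wounds held 15.88, 11.01, 7.34 and 6.53 in abdomen, 15.25, 12.63, 16.16 and 11.7 in back and 7.68, 10.21, 27.71 and 16.05 in cheek. Again no wound library overlapped an unwounded one. The adjusted p of limma was 0.00022 for abdomen, 1.1e-05 for back and 6.5e-06 for cheek, and without abdomen mouse 1, 3 or 4 the abdomen value lost its call (adjusted p 0.00124 to 0.00177).

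Retnlg, which encodes resistin-like gamma, a small secreted protein, was 0.91, 2.71, 2.05 and 0.46 FPKM in unwounded abdomen, 0.69, 1.42, 1.35 and 0.38 in back and 0.59, 0.70, 0.46 and 0.46 in cheek. Wound libraries held 12.60, 7.24, 19.08 and 8.65 in abdomen, 14.97, 13.69, 24.22 and 29.40 in back and 21.65, 18.98, 22.51 and 4.37 in cheek. The groups did not overlap at any site. Retnlg rose by 3.85 ± 0.44 on the log2 scale in back (limma adjusted p = 5.9e-05) and 3.82 ± 0.44 in cheek (adjusted p = 8.8e-05), where the call was lost without cheek mouse 2 (adjusted p = 0.00115). The abdomen value was 2.67 ± 0.44 with an adjusted p of 0.00136, just short of the threshold. It passed in 2 of 9 other settings that kept the threshold and without abdomen mouse 2, back mouse 4 or cheek mouse 4.

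Ly6g, the surface antigen by which mouse neutrophils are most often sorted, was listed at 0 in 11 of 12 unwounded libraries and at 0.07 FPKM in the library of cheek mouse 1. In wounds it was above 0 in all 12: 0.61, 0.20, 0.62 and 0.07 FPKM in abdomen, 0.07, 0.21, 0.13 and 0.13 in back and 0.48, 0.61, 0.90 and 0.07 in cheek. It was higher in the wound of every mouse, and the groups overlapped only in cheek, by a tie at 0.07. The limma adjusted p was 0.017 for abdomen, 0.21 for back and 0.0056 for cheek, none past 0.001. Ly6g belongs to a gene family whose members are similar in sequence, so its reads may be split between copies.

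In all, 2 of the 10 genes were called in abdomen wounds and 4 each in back and cheek wounds, all of them higher. Over all tested genes 4.96%, 14.4% and 8.69% were called in either direction, and 3.92%, 10% and 6.5% as higher. The 4 mature genes gave 2, 3 and 3 of these calls, Lcn2 the other 1 in back and cheek, and the azurophil genes 0. At an adjusted p under 0.05 the 10 genes had 6, 4 and 7 calls, beside 32.9%, 45.9% and 36.6% of all genes. Those of abdomen and cheek included Mpo, which was lower. They also included Ly6g, and in cheek Ngp, which passed the filter mainly or wholly through wound libraries. In whole tissue a higher level cannot tell more cells from more RNA per cell.

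**Figure D3:**
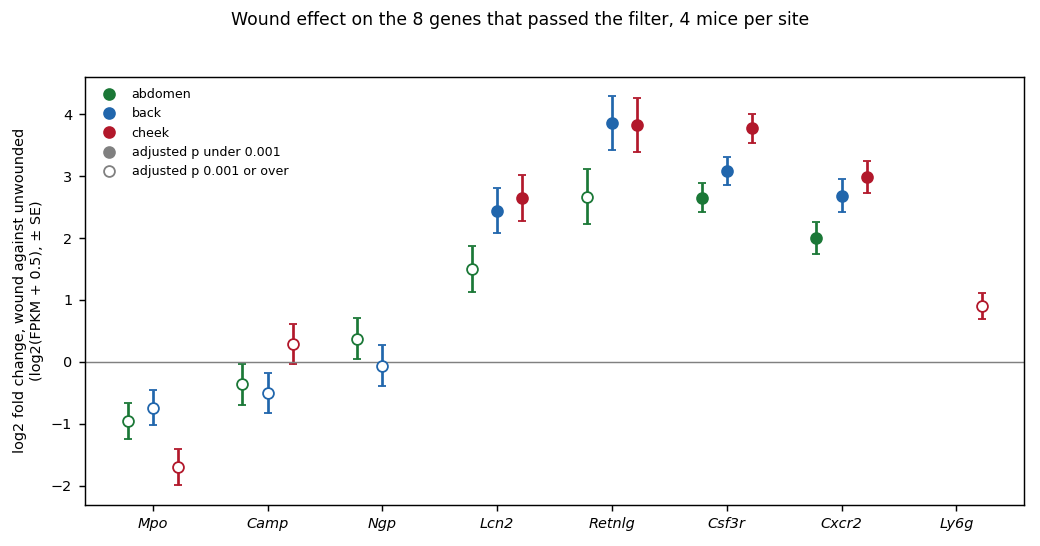
Log2 fold change of wound against unwounded skin, on log2(FPKM + 0.5), with its SE for the 8 tested genes and 3 sites (4 mice each), where filled points passed an adjusted p of 0.001. Values against a group at 0 in all 4 libraries (Ly6g in abdomen and back, Ngp in cheek) are not drawn; Csf3r, Cxcr2, Retnlg and Lcn2 lie above 0 at each site and Mpo below.

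The summed levels of the 3 classes show how far Mpo and the mature genes moved apart, while a change of Elane was not detectable. In unwounded skin Mpo and Elane made up 49.8% to 69.7% of the summed FPKM of the 10 genes in abdomen, 27.3% to 53.3% in back and 50.3% to 61.5% in cheek, and almost all of it was Mpo. In wounds their share was 6.74% to 25.8%, 2.24% to 6.61% and 1.16% to 6.54%. The 4 mature genes held 7.78% to 11.2%, 11% to 22.5% and 9% to 20.2% without a wound and 23.8% to 41.5%, 37.1% to 48.2% and 40.1% to 67.0% with it.

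The ratio of the mature to the azurophil sum was 0.129 to 0.224 in unwounded abdomen and 1.6 to 4.50 in abdomen wounds, 0.207 to 0.740 and 6.96 to 16.6 in back, and 0.159 to 0.402 and 6.13 to 36.0 in cheek. Within mice the log2 ratio, taken after 0.5 FPKM was added to each sum, changed by 3.61 ± 0.93 in abdomen, 4.18 ± 0.54 in back and 5.58 ± 1.39 in cheek (SD, n = 4), in the same direction in 12 of 12 mice. Against the 6 azurophil and progenitor genes of the further list it was 2.54 ± 0.49, 3.16 ± 0.60 and 4.11 ± 0.87. The sum of that list had a median of 2.295 FPKM in unwounded skin and 2.705 in wounds, so this change mostly follows the mature genes. This set was added after the values were seen, and the ratio rose in all 12 mice.

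Against the specific granule genes the change was smaller. The log2 ratio of mature to specific sums changed by 1.18 ± 0.88 in abdomen, 1.17 ± 0.74 in back and 1.28 ± 0.44 in cheek (SD, n = 4), where Lcn2 carried most of the specific sum. Without Lcn2 the specific sum was 0 to 5.55 FPKM in unwounded skin and 0.31 to 2.01 in wounds, and the change was 2.5 ± 0.35, 3.58 ± 0.94 and 2.75 ± 0.60. All 12 mice moved in 1 direction in both versions. No test was attached to the sums.

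**Figure D4:**
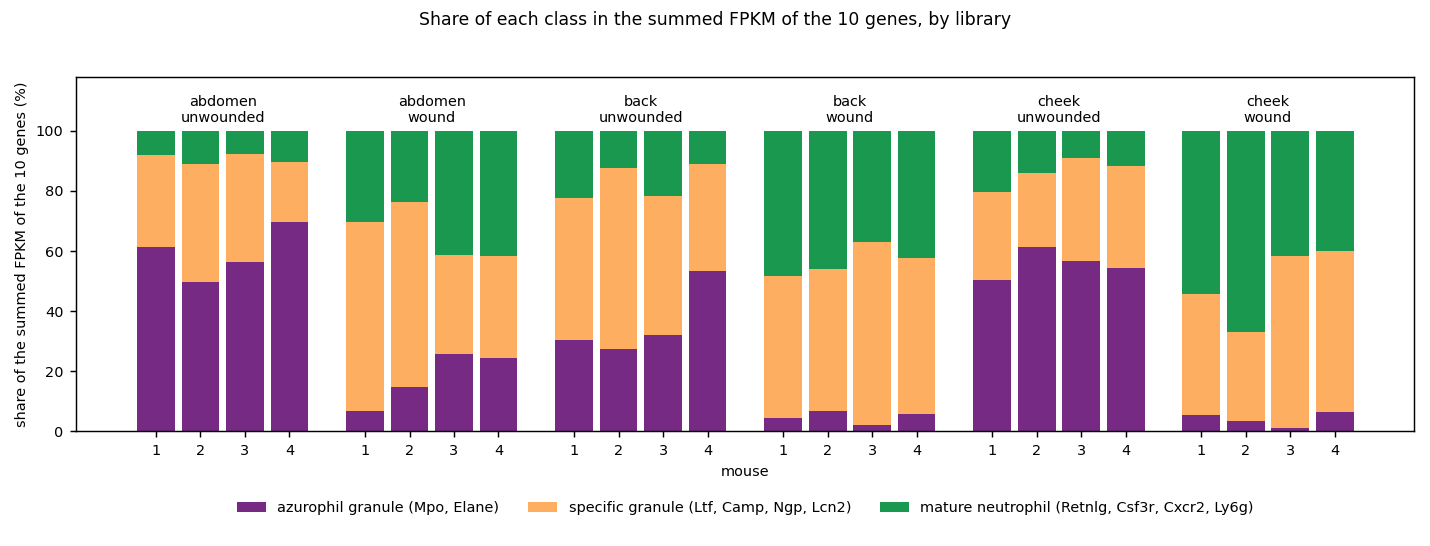
Share (%) of the azurophil, specific and mature classes in the summed FPKM of the 10 genes, for each of the 24 libraries. The azurophil share is at least 27.3% in each unwounded library and at most 25.8% in each wound, and the mature share is at most 22.5% and at least 23.8%.

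The further list of mature neutrophil genes held 22 genes, of which 21 were tested. Of these, 16 rose and 1 fell in abdomen wounds, 17 rose in back and 17 in cheek. Over all tested genes 3.92%, 10% and 6.5% were called higher. Fpr1, Trem1, Trem3, Clec4e, Mrgpra2a and Mrgpra2b reached 0.5 FPKM in no unwounded library, and Clec4d, Stfa2l1 and Cd300lf in fewer than 4. A rise in these genes is thus part of the reason they were tested. The median fold change was 3.13, 3.41 and 3.51 on the log2 scale (3.17, 3.46 and 3.51 without genes at 0 in the unwounded group). S100a9 and S100a8, the subunits of calprotectin, had the largest mean wound effects of the list. S100a9 was 1.55 to 12.5 FPKM in unwounded skin and 166 to 1348 in wounds, a rise of 6.23 ± 0.41, 6.45 ± 0.41 and 7.54 ± 0.41. S100a8 rose by 5.55 ± 0.54, 7.17 ± 0.54 and 6.19 ± 0.54, and both are also made by wound keratinocytes. The smallest mean effect in absolute size was that of Ceacam10, with 0.31, 0.39 and 0.06 and adjusted p between 0.12 and 0.83.

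The gene that fell was Il1r2, the decoy receptor of interleukin 1, and it was picked out after its values were seen. It was 148 to 193 FPKM in unwounded abdomen and 78.6 to 100.9 in abdomen wounds, a wound effect of -0.99 ± 0.13 (limma adjusted p = 0.00017). In back and cheek the effect was -0.45 ± 0.13 and -0.47 ± 0.13, with adjusted p of 0.0126 and 0.0135. Like Mpo it was called lower in unwounded back (-0.90 ± 0.12) and unwounded cheek (-0.86 ± 0.12) than in unwounded abdomen. Cxcr1, the sister receptor of Cxcr2 and also picked after its values were seen, was listed at 0 in all 12 unwounded libraries and reached at most 0.44 FPKM in wounds.

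The ligands of the member receptors were nearly silent without a wound. Csf3, granulocyte colony-stimulating factor and the ligand of Csf3r, was listed at 0 in all 12 unwounded libraries. In wounds it was 7.08, 1.2, 3.00 and 4.12 FPKM in abdomen, 10.66, 8.23, 6 and 5.04 in back and 6.84, 4.57, 9.41 and 3.57 in cheek, with limma adjusted p of 3.4e-05, 1.4e-06 and 3.2e-06. Of the 5 Cxcr2 ligands Cxcl2 was the highest, at 58.5 to 179 FPKM in abdomen wounds, 222 to 314 in back and 135 to 370 in cheek, against at most 0.35 in unwounded skin.

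Cxcl1 rose by 3.04 ± 0.35, 4.79 ± 0.35 and 4.55 ± 0.35 on the log2 scale. Cxcl3 rose at all sites and reached 10.9 to 68.0 FPKM in wounds against at most 0.32, and Cxcl5 rose likewise to 2.05 to 43.0 against at most 0.04. Ppbp, a chemokine that platelets also carry, rose in cheek by 2.36 ± 0.36 (limma adjusted p = 0.000429), and its values of 1.04 ± 0.36 in abdomen and 1.69 ± 0.36 in back had adjusted p of 0.043 and 0.0026. Of the 6 ligands 5, 5 and 6 were called, all of them higher, beside 3.92%, 10% and 6.5% of all tested genes. Csf3, Cxcl2, Cxcl3 and Cxcl5 reached 0.5 FPKM in no unwounded library and Cxcl1 in 2. A rise in these genes is thus part of the reason they were tested.

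Receptor and ligand levels were compared across the 12 wound libraries as a description. Csf3r and Csf3 had a Pearson r of 0.58 (Spearman 0.48), which was 0.44 without the 2 libraries farthest from the median of Csf3 and 0.45 with site means subtracted. Cxcr2 and its summed ligands had an r of 0.58 (Spearman 0.56), then 0.55 and 0.43. Cheek mouse 3 had the highest Csf3r, Cxcr2, Lcn2 and Ly6g of all libraries and the highest ligand sum, at 520 FPKM, together with the lowest Mpo, at 2.11.

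**Figure D5:**
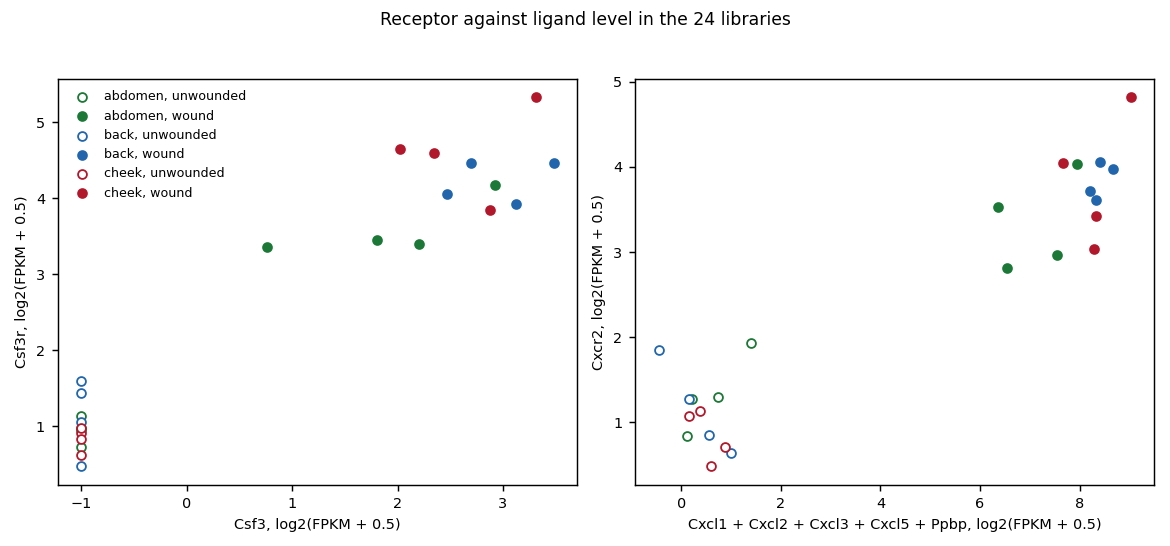
Csf3r against Csf3 (left) and Cxcr2 against the summed Cxcl1, Cxcl2, Cxcl3, Cxcl5 and Ppbp (right), both axes log2(FPKM + 0.5), with open points for unwounded and filled points for wound libraries. Wound and unwounded libraries form separate clouds, with Csf3 listed at 0 in all 12 unwounded libraries.

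Cheek wounds held more Csf3r than abdomen wounds, by 1.01 ± 0.28 on the log2 scale (limma adjusted p = 0.0465), and less Mpo, and these were the 2 of 8 tested members called for this pair, in which 10.8% of 14023 genes were called. The Csf3r call held in 5 of 9 other settings and was lost in 10 of the 12 fits that left out 1 mouse, with adjusted p up to 0.116, and with the replicate number as a block it was 0.0696. Back and abdomen wounds (1.27% of genes called) and cheek and back wounds (2.5%) gave 0 calls among the 10 by limma. At an unadjusted p under 0.05 there were 3 for back against abdomen (Mpo, Camp and Csf3r) and 1 for cheek against back (Camp). The share of all genes under that unadjusted threshold is not given here, so these counts have no background to be set against.

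Whether the wound response itself differed between sites was tested directly. The F test over the 3 wound effects called 0 of the 10 genes at an adjusted p under 0.05, where 3 of 14423 (0.0208%) were called in all. Pairwise, 0 of the 10 were called for back against abdomen (0% of all genes), cheek against abdomen (0.00693%) or cheek against back (0.0277%). The smallest value was that of Csf3r, with an unadjusted p of 0.0159 and an adjusted p of 0.282, and it was the only one of the 8 tested genes under 0.05 unadjusted. The wound effect of Csf3r was larger in cheek than in abdomen by 1.12 ± 0.33 (limma adjusted p = 0.292), and that of Cxcr2 by 0.98 ± 0.37 (adjusted p = 0.358). The calls missing in abdomen for Retnlg and Lcn2 are thus no evidence of a different response there.

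The genes most like the mean of the 4 mature members over the 12 wound libraries were Il1rn, Nfkbid, Cd14, Cyp4f18, Srgn, Trem3, Cxcl3 and Il1b, with r between 0.91 and 0.94. With site means subtracted they were Atp6v1b2, Marcksl1, Srgn, Il1rn, Nfkbid, Cyp4f18, Adam8 and Sertad1, with r between 0.91 and 0.93. Il1rn (the interleukin 1 receptor antagonist), Nfkbid, Srgn and Cyp4f18 were in both sets. The 4 mature members did not all follow each other. With site means subtracted, Csf3r and Cxcr2 had an r of 0.88 and Retnlg and Ly6g of 0.79, but Retnlg had 0.05 with Csf3r and -0.12 with Cxcr2. Retnlg also went with Ngp (0.87) and Ltf (0.80), and Ly6g with Ngp (0.74) and Ltf (0.74). Ltf, Ngp and Ly6g did not exceed 0.94 FPKM in these libraries.

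Markers of other cells moved in the same libraries. The 9 macrophage and monocyte markers summed to 493 to 1056 FPKM in unwounded skin and 1010 to 1815 in wounds. Of these, 2, 5 and 4 rose in abdomen, back and cheek, beside 3.92%, 10% and 6.5% of all tested genes called higher. Platelet markers summed to 52.4 to 111 FPKM and 117 to 277, with 0, 1 and 2 of the 4 tested called higher, beside the same shares. Most of this sum was Pf4, at 46.8 to 107 FPKM in unwounded skin and 112 to 269 in wounds. Medians in unwounded and wound libraries were 0.325 and 2.43 for Ppbp and 2.66 and 3.57 for Gp1bb. Those of Itga2b were 1.65 and 1.515, and of Gp9 0.08 in both. Eosinophil markers, which would bring a peroxidase of their own, summed to 11.2 to 46.1 and 7.75 to 35.6. Epx was at 0 in all libraries of 3 of the 6 groups. Red cell and mast cell markers overlapped between states and gave 0 calls by wounding, also at an adjusted p under 0.05 (limma). Skeletal muscle markers were 347 to 15305 FPKM without a wound and 1309 to 4653 in wounds. The skin markers Krt5, Krt14, Krt1, Krt10, Col1a1 and Col3a1 were present in every library, at sums of 10276 to 22491 FPKM. The part of these cells in the levels of the 10 genes was not tested.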

How the data were processed

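RNA sequencing of 24 libraries from 12 mice was analysed, 4 mice at each of 3 sites, with an unwounded and a day-3 wound library per mouse. The authors deposited FPKM values, rounded to 2 decimals, for 18368 genes. Per the labels and the study's methods, total RNA of whole tissue was sequenced on a BGISEQ-500 with paired reads of 100 bases, mapped with HISAT2 and Bowtie2 (2.2.5) to GRCm38 and quantified with RSEM (1.2.12). FPKM holds no counts, so no count model was fitted and the counting error of a value is unknown. Whether strand was used in counting is not given in the sources used here. The authors' own table of DESeq2 comparisons, with fold changes and p-values, was not used. No per-sample column was left unused (0).

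Values were tested as log2(FPKM + 0.5) with limma 3.58.1 (trend and robust, statmod 1.5.0, R 4.3.3) over all genes that passed the filter of 0.5 FPKM in 4 libraries, with Benjamini-Hochberg adjustment. Wound effects and their differences were fitted over 24 libraries with a term for each mouse (14423 genes), and sites were compared within the 12 unwounded (13956 genes) and the 12 wound libraries (14023 genes). The threshold was 0.001 for wound effects and 0.05 otherwise. Both libraries of a mouse deviated together (r from -0.03 to 0.533, median 0.349), and the labels give them as 1 animal. Single values were also compared by exact permutation tests (scipy 1.17.1), whose smallest two-sided p is 0.0286 for 4 against 4 libraries. Simulated data with known changes were used to test the scripts. Other tools were Python 3.11.15, numpy 2.4.6, pandas 2.3.3 and matplotlib 3.10.9.

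The 10 genes and all lists were chosen with earlier results of these data known. All 10 genes are reported, and of the 4 further lists of neutrophil genes and ligands every gene of those with at most 8 genes was named, otherwise the 2 genes with the largest and the 1 with the smallest absolute mean wound effect. Marker lists of other cells are given as sums and counts. Il1r2, Cxcr1, the sebaceous list, the genes most like Mpo and the class sums without Mpo were added after values were seen. Upstream sequences are from RefSeq (GRCm38.p6).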

Additional observations from a re-analysis of the deposited data

Results flagged for a closer look

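Of 60 groups of 4 libraries 57 had a spread that could be tested with Dixon's criterion for an outlying library, and 8 exceeded it, where chance gives about 1 in 20. In 7 of the 8 the values were below 2 FPKM. Elane was listed at 0 in unwounded abdomen mouse 1, against 0.14 to 0.15 FPKM in the other mice, and was 0.5 in unwounded back mouse 1. Ltf was 0.29 FPKM in the abdomen wound of mouse 1 and 0.45 in unwounded back mouse 2. Ngp was 1.84 FPKM in that same unwounded back library and 0.16, the lowest of its group, in the back wound of mouse 1. Ly6g was 0.07 FPKM in unwounded cheek mouse 1 and listed at 0 in the other 3. Csf3r was 17.58 FPKM in the abdomen wound of mouse 1, against 9.75 to 10.45 in the other abdomen wounds. The causes were not tested.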

How the results depend on the processing

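Of 772 fold changes of single members under other settings, 745 kept their direction and side of the threshold, 17 gained a call and 10 lost it, and of 1020 with a mouse left out 989, 9 and 22 did. None changed sign while called. The number of the 10 genes called in abdomen wounds was 1 with each site fitted on its own 8 libraries and 6 at a threshold of 0.05, and between 1 and 3 with a mouse left out. In cheek wounds it was 2 on the site's own 8 libraries, 7 at 0.05, and between 2 and 5 with a mouse left out. With all 24 libraries as 6 groups it was 1 for unwounded cheek against back and 1 for back against abdomen wounds. With a mouse left out it was 0 to 2 for unwounded cheek against abdomen, 0 to 1 for unwounded cheek against back, 0 to 1 for back against abdomen wounds and 1 to 2 for cheek against abdomen wounds. For that last pair it was 1 without a filter, 1 with median-ratio scaling and 1 with quantile normalization. The causes were not tested.

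Equal mouse numbers at different sites did not deviate together (r from -0.372 to 0.22). This cannot exclude shared animals, since both libraries of abdomen mouse 1 had an r of only -0.03. The labels number the mice 1 to 4 at each site. That each site had its own mice rests on the study's methods, which place the wounds of a mouse at a single site. With the replicate number as a block, 1 gene was called for cheek against abdomen wounds in place of 2, and no other count of the site comparisons moved. Without the block for the mouse, 3, 3 and 4 genes were called in abdomen, back and cheek wounds.

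The change of the log2 ratio of mature to azurophil sums was 2.54, 2.87 and 3.75 in abdomen, back and cheek when means of log2 values replaced sums. With Elane as the only azurophil gene it was 3.47 in back and 4.00 in cheek, where Elane lay at or under 0.5 FPKM so that with 0.5 added the value mostly follows the mature genes. Against the azurophil and progenitor list, whose sum had a median of 2.295 FPKM in unwounded skin and 2.705 in wounds, it was 2.54, 3.16 and 4.11. Against the specific genes the change was 1.55, 1.91 and 1.78 from means of log2 values, and 2.5, 3.58 and 2.75 without Lcn2. Fragments behind each FPKM value are unknown, which limits Elane, Ltf, Ngp and Ly6g most.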
